A study of Mus musculus with 2 samples.

Results

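Immunoglobulin genes were compared between B cells with and without a human AIRE transgene, through every probe set of a mouse expression array whose platform gene symbol starts with Igh, Igk or Igl, leaving out Ighmbp2, Igll1 and the Iglon genes, plus Jchain. This rule took 57 of 45037 probe sets, of which 44 carry 1 gene symbol and 13 carry several, 29 immunoglobulin symbols in all. Each group was 1 array of RNA pooled from 2 mice of the NOD strain, which develops autoimmune diabetes, aged 8 weeks. The first group carried a transgene for human AIRE, driven by the promoter of an MHC class II gene, which is active in B cells and other antigen-presenting cells. The second group was non-transgenic. In both, cells positive for B220 and negative for Thy1 and CD11c were used, and the labels name no treatment. The sources used here give neither the tissue of origin nor the number of founder lines.

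An antibody is built of paired heavy and light chains, each with a variable domain that binds antigen and a constant domain. The heavy chain's constant part sets the isotype (mu for IgM, gamma for IgG, alpha for IgA), and the light chain is kappa or lambda, with kappa far more common in mice. A naive B cell makes the chains in membrane form as its antigen receptor, whereas a plasma cell makes large amounts of secreted antibody, joined in IgM and IgA by the J chain. Each B cell joins its own variable gene segments, so a probe set for 1 variable gene reads the summed transcripts of the clones that use it or a close relative.

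Intensities below were aligned so that both arrays had the same median, and are always given with the transgenic array first and the non-transgenic second. The number in brackets after a pair is the log2 of the transgenic over the non-transgenic value. Values under the pooled 25th percentile, 25.1, were set to it, and a probe set counted as above the filter where the brighter of its 2 values was at or over the pooled median of 98.8. With 1 array per group, no ratio has a replicate check, no test can be made, and precision is limited by the number of arrays.

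On the transgenic array the immunoglobulin transcripts were lower nearly throughout. Of the 46 members above the filter, 44 had a ratio below 0, and 45 lay under the median ratio of all probe sets, 0.15. Their median log2 ratio was -0.88, with the middle 50% between -1.13 and -0.41, where the middle 50% of all 23987 probe sets above the filter lay between -0.21 and 0.46. At least 2-fold lower were 20 members (43.5%), against 4.04% of all probe sets above the filter, and 0 members were at least 2-fold higher, against 4.71%. These 20 make up 2.06% of the 970 probe sets that were 2-fold lower, where the members are 0.192% of all those above the filter. Of the 20, 1427869_at and 1427758_x_at passed the filter by the non-transgenic value alone. With both values above it, 18 of 42 members were at least 2-fold lower, against 1.79% of 21062 probe sets, and 0 higher, against 2.57%. The member just past 2-fold stood at -1.001 and the next one short of it at -0.97. In a bulk sample fewer cells with a transcript and less of that transcript per cell cannot be told apart.

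**Figure D1:**
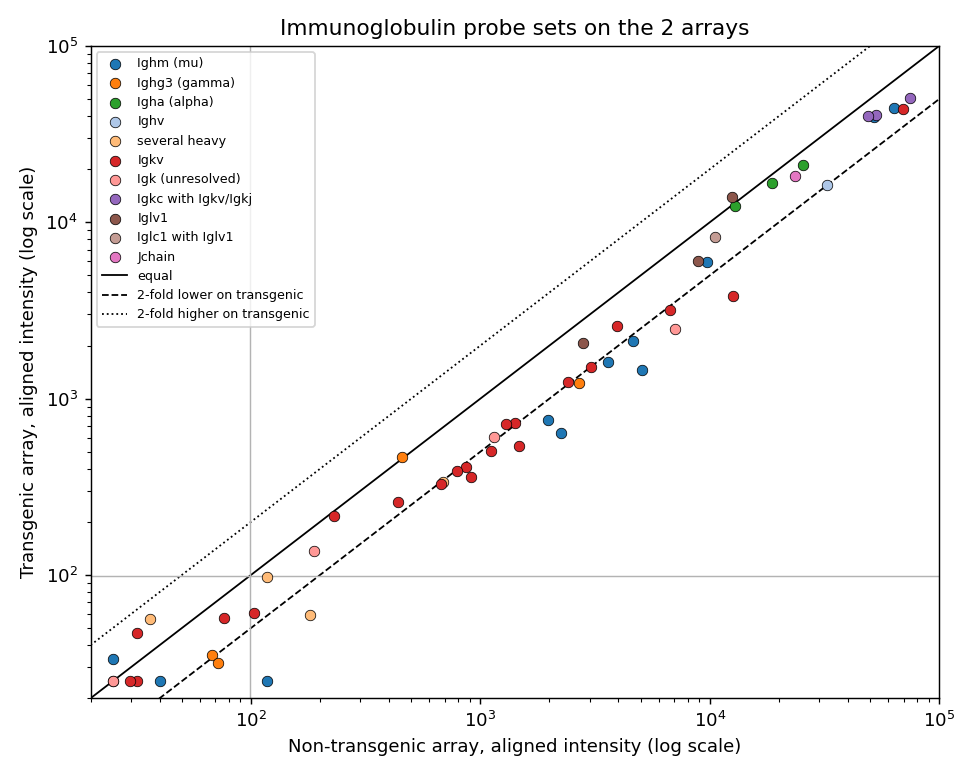
Aligned intensity of each of the 57 immunoglobulin probe sets on the transgenic (vertical) against the non-transgenic array (horizontal), both on log axes, with values under the floor of 25.1 drawn at it and grey lines at the filter of 98.8. Most points lie below the line of equal intensity, 20 of the 46 above the filter lie on or below the dashed 2-fold line, and none lies above the dotted one.

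The members are not independent measurements. Affymetrix marks probe sets that can read several transcripts by the endings _a_at, _s_at and _x_at, and 27 of the 57 members have one. In addition, 19 members were designed on 9 target sequences that each serve more than 1 of them. The 20 members above the filter with the plain ending had a median of -0.96 with 9 at least 2-fold lower, and the 26 with a shared ending had -0.78 with 11. Over all probe sets above the filter the medians were 0.14 for the plain and 0.16 for the shared endings. With 1 mean value for each target sequence, a choice made after seeing the data, the median was -0.80 over 40 values, 15 of them at least 2-fold lower.

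Probe sets named for Ighm, of the IgM heavy chain, were lower in all 9 cases above the filter, with a median of -1.16. Of the 9, 6 were at least 2-fold lower. The platform table gives all 11 of these probe sets the symbol Ighm, the mu constant gene. Which part of a transcript each one reads is not stated in the sources used here. Whether some read variable regions could not be checked, so the median is not a measure of the mu constant part alone. The brightest, 1427329_a_at, was at 44462 against 63675 (-0.52). Next came 1427351_s_at, at 39551 against 52172 (-0.40), and these were the smallest 2 differences among the Ighm probe sets above the filter. After quantile normalization these 2 stood at -0.11 and -0.09. The third in brightness, 1425385_a_at, was at 5954 against 9757 (-0.71).

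Dimmer Ighm probe sets differed more. For 1425247_a_at the intensity was 1454 against 5047 (-1.80), and for 1425324_x_at it was 642 against 2257 (-1.81). The ratio was -1.12 for 1452535_at, which stood at 2132 against 4628. All of these lay well above the filter on both arrays. A pair of probe sets designed on a single target sequence were also far apart in size: 1427870_x_at stood at 1614 against 3616 (-1.16), while 1427869_at was under the floor on the transgenic array, at 24.7 against 118, and at least 4.69-fold lower. Only the non-transgenic value of 1427869_at passed the filter. At 1427756_x_at the values were 752 and 1980 (-1.40). The other 2 Ighm probe sets lay under the filter, 1451949_at at 8.91 against 40.1 and 1426196_at at 33.4 against 9.38.

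IgG was represented by Ighg3 alone, the constant gene of the IgG3 subclass, whose 4 probe sets disagreed. The brightest, 1427503_at, was at 1227 against 2697 (-1.14). By contrast 1447998_at was at 469 against 454 (0.04), and its sign turned under each of the other 3 scalings (-0.12 to -0.07). The 2 remaining ones share a target sequence and lay under the filter, 1426198_at at 31.7 against 71.6 and 1426199_x_at at 35.2 against 67.6. The heavy chain constant genes among the member symbols are Ighm, Ighg3 and Igha, and the other isotype genes were not analysed here.

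By group median, the alpha heavy chain of IgA differed least among the heavy chain groups. Its 3 Igha probe sets had a median of -0.16, and none was 2-fold apart. They stood at 21033 against 25370 for 1421653_a_at (-0.27), at 16701 against 18628 for 1425763_x_at (-0.16) and at 12317 against 12912 for 1429381_x_at (-0.07). All 3 kept their sign under the 4 scalings run. After quantile normalization they stood at -0.20, -0.17 and -0.15, farther from 0 than the 2 brightest Ighm probe sets (-0.11 and -0.09). The mu median came mostly from probe sets dimmer than these 3. A single Ighg3 probe set, 1447998_at, also differed less (0.04). The difference between the mu and the alpha probe sets was not tested, since 1 array per group gives no spread to test it against.

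The J chain, which links IgM and IgA units for secretion, lay close to alpha. Its single probe set, 1424305_at, was at 18279 against 23590 (-0.37), a ratio between -0.53 and -0.32 under the 4 scalings. Jchain is also the only member with an entry in the RefSeq promoter table (1 of 29 member symbols), so the sequence before its start is shown. The 250 bases upstream of the start on the minus strand, chr5:88527898-88528147 of GRCm38.p6, read 5′ to 3′ as follows, with capitals marking matches to the E-box pattern CANNTG, the kind of site that the B lineage factors of the E2A family bind.

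Jchain: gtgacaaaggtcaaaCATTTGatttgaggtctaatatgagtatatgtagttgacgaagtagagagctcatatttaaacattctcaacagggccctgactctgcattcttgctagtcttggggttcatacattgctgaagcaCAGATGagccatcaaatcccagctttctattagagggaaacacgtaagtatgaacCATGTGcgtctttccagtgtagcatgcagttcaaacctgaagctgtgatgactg

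This stretch holds 3 such matches, and 66.2% of 32851 RefSeq promoters hold at least 1 in a window of the same length. The octamer ATGCAAAT, the Oct protein site typical of immunoglobulin variable gene promoters, was searched on both strands and its letters are not in this window. Of all promoters, 1.60% hold it. These matches describe letters only.

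Probe sets that name a heavy chain variable gene were lower as well. The only one with a variable symbol alone, 1455530_at for Ighv14-2, was among the brightest members, at 16219 against 32552 (-1.01). The Igha and Jchain probe sets of the same brightness range, between 8000 and 32000, had ratios from -0.37 to -0.07. Among the 4 probe sets that name Ighm together with a variable gene, 1427851_x_at (Ighv1-72 and Ighm) was at 335 against 687 (-1.04). For 1427758_x_at (Ighv14-2, Ighg3 and Ighm) the values were 59.4 and 180.3 (-1.60), so only the non-transgenic value passed the filter. With the same symbols, 1451947_at was at 96.9 against 117 (-0.28) and 1452538_at was under the filter at 56.5 against 36.5. The last and 1427758_x_at were designed on a single target sequence.

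Kappa light chain transcripts were lower in all 23 probe sets above the filter, except 1 after quantile normalization, with a median of -0.95 and 10 at least 2-fold lower. Among the brightest members were the 3 probe sets that name the kappa constant gene Igkc together with Igkj1 and variable genes. Of these, 1427455_x_at was at 50904 against 74279 (-0.55), 1427660_x_at at 40677 against 52801 (-0.38) and 1452417_x_at at 40224 against 48726 (-0.28). None of them was 2-fold apart, and after quantile normalization they stood at -0.13, -0.05 and 0.01, so the sign of the last turned. The bright Igkv8-30 probe set, 1452463_x_at, was at 44178 against 69221 (-0.65, but -0.24 after quantile normalization).

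Below that brightness the kappa variable genes were lower by about 2-fold. The group of kappa variable probe sets, 17 of 22 above the filter, had a median of -1.001, and 9 of the 17 were at least 2-fold lower. Igkv9-120 had the lowest ratio, at 3803 against 12574 for 1460423_x_at (-1.73), while its other probe set above the filter, 1452536_s_at, was at 717 against 1295 (-0.85). Igkv4-72 followed, at 540 against 1476 (-1.45), and Igkv4-68 was at 507 against 1111 (-1.13).

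Genes of the Igkv6 and Igkv14 families were lower too. Igkv6-20 was at 1517 against 3037 (-1.001), and Igkv14-111 was at 330 against 672 (-1.03). The Igkv6-14 group was read by 5 probe sets, 4 of which also name relatives. Its probe set for Igkv6-14 and Igkv6-23, 1427799_x_at, was at 3177 against 6735 (-1.08), and the pair that adds Igkv8-19 on a single target sequence was at 391 against 788 (-1.01) and 410 against 867 (-1.08). The other 2 fell short of 2-fold, with Igkv6-14 alone at 2569 against 3958 (-0.62) and 1451965_at at 723 against 1413 (-0.97).

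Igkv19-93 was read by 2 probe sets of a single target sequence that disagreed, 1427856_a_at at 361 against 909 (-1.33) and 1427855_at at 215 against 229 (-0.09). The Igkv4-68 probe set given above was designed on that sequence too. Short of 2-fold were Igkv15-103, at 1246 against 2404 (-0.95), the probe set for Igkv4-55 and Igkv4-68, at 260 against 438 (-0.75), and Igkv6-15, at 60.7 against 103 (-0.76) with only the non-transgenic value above the filter. No probe set of a kappa variable gene above the filter was higher on the transgenic array.

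Another 4 probe sets carry the locus name Igk without a gene. The brightest, 1425738_at, was at 2474 against 7033 (-1.51). For 1452557_a_at the values were 609 and 1142 (-0.91), and for 1427757_at they were 137 and 188 (-0.46). The fourth, 1426178_at, was under the floor on both arrays.

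Lambda light chain transcripts differed less than the kappa variable ones, and none of their 4 probe sets was 2-fold apart (median -0.39). The 3 Igkc probe sets had a similar median of -0.38. After quantile normalization the probe sets for Iglv1 alone had a median of -0.64 and the Igkc ones -0.05. After loess these medians were -0.64 and -0.29. The probe set for Iglc1 and Iglv1 together, 1424931_s_at, was at 8297 against 10580 (-0.35). For Iglv1, the most used lambda variable gene of the mouse, 1430523_s_at was at 6031 against 8897 (-0.56) and 1427292_at at 2072 against 2807 (-0.44). The brightest Iglv1 probe set, 1447918_x_at, went the other way at 13920 against 12439 (0.16), the highest ratio of all members above the filter. That sign was kept after quantile normalization and loess (0.12 and 0.10) but not without further scaling, where the deposited values were 13117 and 13132. The difference between kappa and lambda was not tested.

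**Figure D2:**
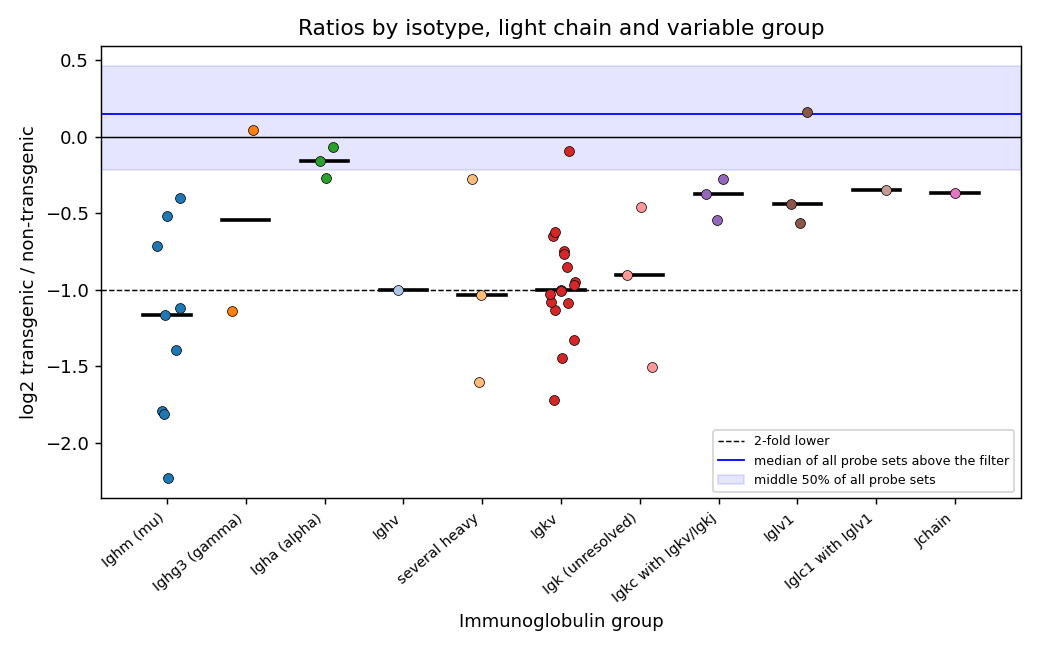
Log2 ratio of transgenic over non-transgenic for the 46 members above the filter, by group, with black bars at the group medians and the blue band holding the middle 50% of all 23987 probe sets above the filter (-0.21 to 0.46). The mu and kappa variable groups centre at -1.16 and -1.001, while alpha, lambda, the J chain and the Igkc probe sets lie between -0.56 and 0.16.

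The 11 members under the filter are Ighm and Ighg3 probe sets (2 of each), the heavy chain one and the Igk one named above, and 5 kappa variable ones. Those 5 are Igk-V21, at 56.7 against 76.1, Igkv5-39, at 47.0 against 31.8, Igkv1-117, at 4.99 against 32.0, the third Igkv9-120 probe set, at 4.88 against 29.6, and Igkv1-135, under the floor on both. They support no direction. With every member kept, the median over 57 was -0.71, against 0.00 over all 45037 probe sets, and 21 were at least 2-fold lower.

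Ratios differed between brightness ranges, but not in the same way for members and for other genes. Above a mean intensity of 32000, the 6 members had a median of -0.46 (from -0.65 to -0.28), and the 150 other probe sets as bright had -0.30, with a 5th percentile of -0.56 and 0 of them 2-fold lower. Between 8000 and 32000, the 7 members had a median of -0.27, against 0.09 for 501 others, and Ighv14-2 was the member 2-fold lower, as were 4 (0.798%) of the others. Of the members in both ranges, Igkv8-30 and Ighv14-2 were the ones under the 5th percentile of the others as bright, -0.56 and -0.57.

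At middle brightness the members stood farther apart from other genes. Between 2000 and 8000, 7 of 11 members were at least 2-fold lower, with a median of -1.08, against 0.804% of 3109 others with a median of 0.25. Between 500 and 2000 the share was 8 of 12, with a median of -1.11 and a highest ratio of -0.85, against 1.5% of 8191 others with a median of 0.19 and a 5th percentile of -0.61. Under 500, where ratios scatter more, 4 of 10 members were 2-fold lower, against 6.66% of 11990 others. The highest deposited intensity was 58023 in transgenic and 98167 in non-transgenic cells. The part of this difference in range in the ratios of the brightest members was not tested.

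**Figure D3:**
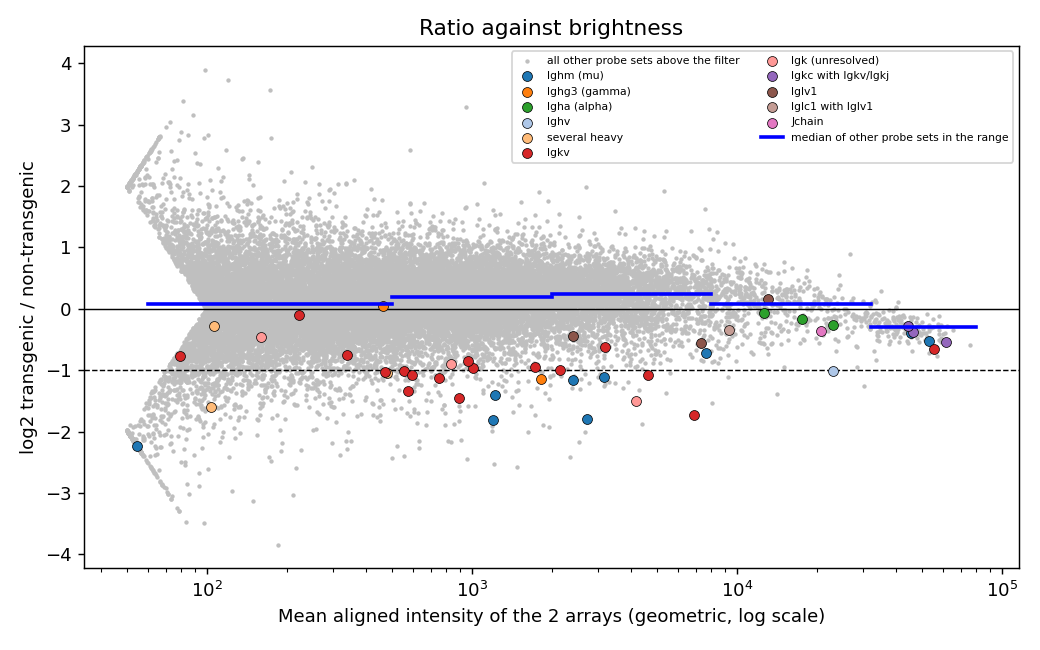
Log2 ratio (vertical) against the geometric mean intensity of both arrays (horizontal, log scale) for the members in colour and all other probe sets above the filter in grey, with blue bars at the median of the others in each brightness range. Members between 500 and 8000 lie at -0.44 or below while the others centre at 0.19 and 0.25, and above 32000 both run below 0.

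The scaling of the arrays changed the sizes of the group medians but not their sign. The mu median lay between -1.37 and -1.16 under the 4 scalings, the kappa variable one between -1.17 and -1.001, and the alpha one between -0.32 and -0.16. The median of the Igkc probe sets moved the most, from -0.54 without further scaling to -0.05 after quantile normalization. The brightest Ighm probe sets, 1427329_a_at and 1427351_s_at, moved as well, from -0.68 and -0.56 to -0.11 and -0.09. Without further scaling 24 members were at least 2-fold lower and 0 higher, where 6.17% of all probe sets above the filter were lower and 2.89% higher. Under all 4 scalings 43 of the 46 members were below 0 and 19 were at least 2-fold lower. The median over all probe sets moved from 0.15 to -0.03 without further scaling and to 0.02 after quantile normalization or loess. The members' median minus that of all probe sets was between -1.03 and -1.01 in each.

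**Figure D4:**
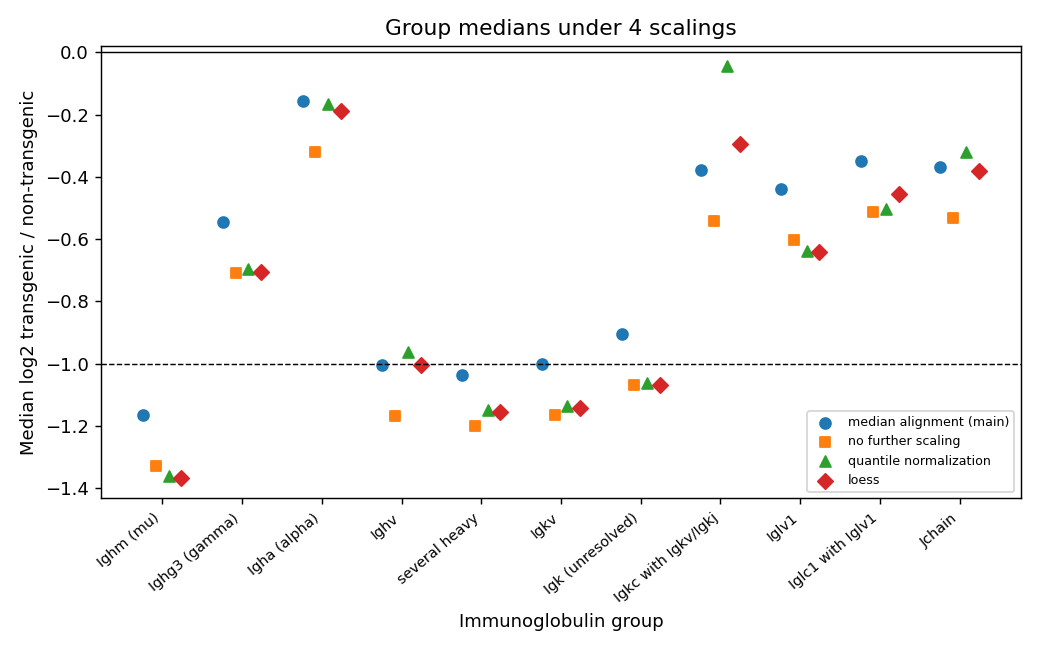
Median log2 ratio of each immunoglobulin group (vertical) under median alignment, no further scaling, quantile normalization and loess, with the dashed line at 2-fold lower. The mu medians stay at -1.16 or below under each scaling, and the Igkc probe sets approach 0 (-0.05) after quantile normalization.

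Genes that work with immunoglobulin were taken from lists, each gene by its brightest probe set, where 3.19% of 10778 genes above the filter were 2-fold lower or more and 4.43% higher. Of the 5 measured partners in the receptor complex, the signalling chains Cd79a, at 19609 against 46825 (-1.26), and Cd79b, at 22961 against 35320 (-0.62), were lower. The other partners on the list differed among themselves. Vpreb1 was at 178 against 30.03 (2.57), with only the transgenic value above the filter, and Vpreb3 at 2726 against 2025 (0.43). Igll1 was at 218 against 222 (-0.03), and its other probe set stood at -0.98.

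Transcription factors that act on immunoglobulin genes had a median of -0.16 over 21 (-0.33 to -0.32 under the other 3 scalings). Of these, 1 was at least 2-fold lower and 0 higher. That gene was Pou2f2, which encodes Oct-2, a factor that binds the octamer of variable gene promoters, at 610 against 3618 (-2.57). The brightest of the list were its cofactor gene Pou2af1, at 15391 against 14308 (0.11, but -0.06 without further scaling), and the Ets-family factor Spib, at 12094 against 17917 (-0.57).

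Genes of class switching and hypermutation, which change the isotype and mutate the variable domain, had 0 of 15 at least 2-fold apart and a median of 0.20, which was between -0.01 and 0.03 under the other 3 scalings. The brightest were the repair adaptor Trp53bp1, at 3122 against 1694 (0.88), and the base excision nuclease Apex1, at 2252 against 1964 (0.20, but -0.01 after quantile normalization or loess). The 5 other Trp53bp1 probe sets lay between -0.05 and 0.40. Pms2 stood at -0.22, and its 2 other probe sets at -1.33 and -0.36. Genes of RNA processing that bear on the choice between membrane and secreted mu had 0 of 10 at least 2-fold apart and a median of 0.20, between 0.04 and 0.20 over the 4 scalings. The brightest were the splicing regulators Hnrnpf, at 21067 against 18111 (0.22, its 3 other probe sets between -0.32 and -0.04), and Hnrnph1, at 18105 against 16593 (0.13, but -0.04 without further scaling). Dimmer probe sets of 2 genes were farther apart. Hnrnpll stood at 0.80 by its brightest and 1.39 by its other probe set. Zfp318 stood at -0.08 by its brightest, with its 4 others between -1.73 and -0.33.

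The machinery that folds and exports antibody chains lay near the median of all genes, 0.19. Its 24 genes had a median of 0.17, between 0.01 and 0.17 over the 4 scalings. By 2-fold or more, 1 was higher and 1 lower. The co-chaperone gene Dnajc3 was the higher one, at 2229 against 953 (1.23), with its 4 other probe sets between 0.18 and 1.01. Txndc5, a disulfide isomerase of the endoplasmic reticulum, was the lower one, at 2041 against 4853 (-1.25), and a second Txndc5 probe set was at -0.55. Mzb1, a chaperone of mu chains, was at 19071 against 15474 (0.30).

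Receptors and transporters of antibody were more often lower, with 3 of 6 genes at least 2-fold lower, 0 higher and a median of -0.71. Pigr, which carries IgA and IgM across epithelia, was at 92.9 against 218 (-1.23), its transgenic value under the filter. Fcgrt, the heavy chain of the neonatal Fc receptor that recycles IgG, was at 392 against 835 (-1.09). Fcer2a, the low-affinity IgE receptor of mature B cells, was at 4736 against 13654 (-1.53). These lists were drawn up with earlier results of these data known, so their counts describe the arrays and support no direction.

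**Figure D5:**
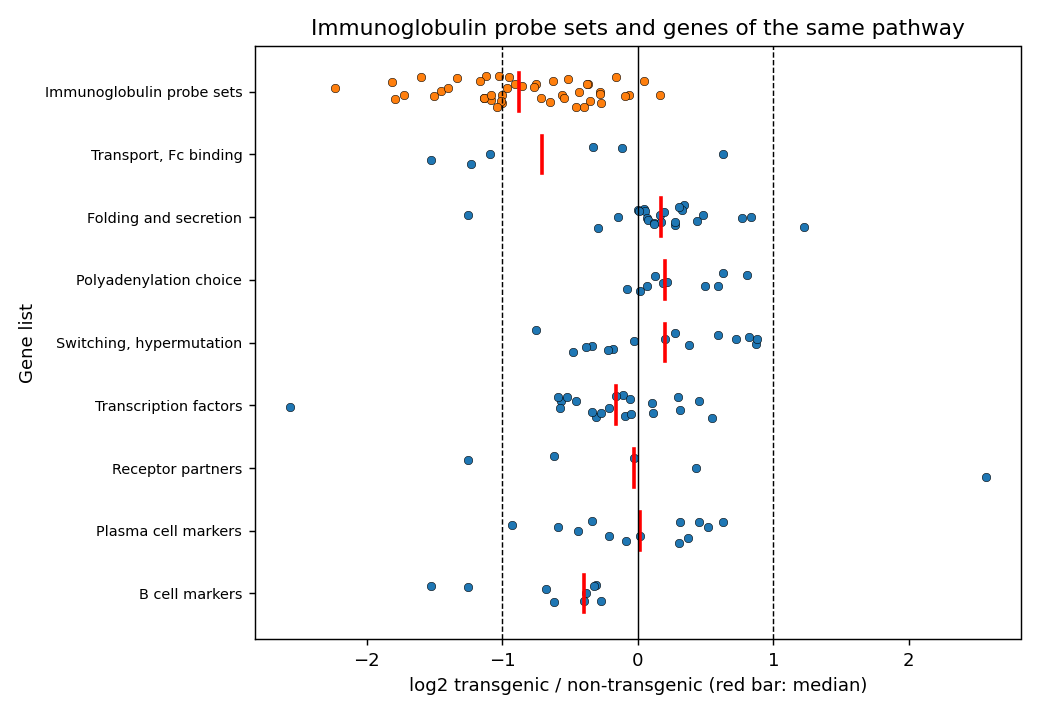
Log2 ratio of transgenic over non-transgenic for the 46 immunoglobulin probe sets above the filter (orange) and for genes of 8 lists above the filter (blue, 1 probe set per gene), with red bars at the medians and dashed lines at 2-fold. The immunoglobulin median is -0.88, and those of folding, polyadenylation and switching genes lie between 0.17 and 0.20, the last under 0 (-0.01) after quantile normalization or loess.

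Markers of B cells and of other cell types were read beside these results. The sort for Thy1-negative and CD11c-negative cells would remove most T cells and conventional dendritic cells. All 9 measured B cell markers above the filter were below 0 (median -0.40), with a summed intensity of 147827 against 229516. Of these 9, 2 were at least 2-fold lower, Cd79a and Fcer2a, and 0 higher. The plasma cell list had 0 of 13 at least 2-fold apart and a median of 0.01 (-0.15 to -0.06 under the other 3 scalings, with 1 gene 2-fold lower without further scaling), summed at 43466 against 39002, and its defining surface marker Sdc1 was at 517 against 548 (-0.08), while 3 further Sdc1 probe sets ranged between -2.29 and 0.29. Of the 13 genes, 6 were below 0, and the ratios ran from -0.93 to 0.63. Mzb1 made up the largest part of the sum, at 19071 against 15474. The natural killer list had a median of 0.55 (0.38 to 0.39 under the other 3 scalings) and a sum of 8275 against 5282. In it, 2 of 9 were at least 2-fold higher (1 under the other 3 scalings) and 0 lower. T cell markers summed to 2273 against 2013 (1 of 7 above the filter at least 2-fold higher), dendritic cell markers to 5065 against 5572 (1 of 7 lower), myeloid ones to 19355 against 18756 (1 of 9 higher) and erythroid ones to 449 against 595 (0 of 2 apart, with Hba-a1 and Alas2 under the floor on both arrays). The 2 natural killer genes at least 2-fold higher were Klre1, at 470 against 192 (1.29), and Gzma, at 2771 against 1369 (1.02). Both passed the filter on both arrays. In the T cell, dendritic cell and myeloid lists, the genes 2-fold apart were Cd4 (155 against 38.4), Batf3 (69.8 against 179) and Mpo (106 against 50.7). Cd4, Batf3 and Mpo each passed the filter on 1 array alone. The part of these cell types in the immunoglobulin ratios was not tested.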

How the data were processed

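RNA of sorted B cells was hybridised to 1 Affymetrix array per group after biotin labelling of fragmented cDNA, per the labels' protocols. The authors' deposited values are linear intensities, 1 per probe set. The sources used here do not state software, background step or summary method. The mean without the highest and lowest 2% was 500.0 on both arrays.

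The 64 control probe sets were left out. Arrays were aligned to the pooled median (factors 1.06 and 0.947), floored and taken to log2. Genes came from the platform annotation, and probe sets with several immunoglobulin symbols were kept as the rule asks. Named were Jchain, every constant region probe set above the filter, each group's brightest, 2 highest and 2 lowest members, every member 2-fold apart and up to 4 genes per list. The remaining members are given too. In the lists Vpreb3, Igll1, Pou2af1, Spib, Mzb1, Sdc1, Pms2, Hnrnpll and Zfp318 were chosen after their values were seen. Brightness ranges were also set after seeing the data. The members and lists were chosen with earlier results of these data known. The scaling and ratio steps were tested on simulated data with even noise and differences planted at brighter probe sets only. That test did not cover dim members, shared target sequences or unequal intensity ranges. Tools were Python 3.11.15, numpy 2.4.6, pandas 2.3.3, statsmodels 0.14.6 and matplotlib 3.10.9.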

Additional observations from a re-analysis of the deposited data

How the results depend on the processing

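Alternatives were no further scaling, quantile normalization, loess, 2 other floors, 3 other filters, a 1.5-fold limit, leaving out probe sets with shared endings, keeping those with 1 symbol and, added after seeing the data, 1 value per target sequence. Under each of them the members' median stayed below 0, between -1.04 and -0.71, and 0 members were 2-fold (or 1.5-fold) higher. The count of members 2-fold lower was between 15 and 24 (29 were 1.5-fold lower), except 9 of 20 without the shared endings, where fewer probe sets were counted. That choice left the heavy chain probe sets with several symbols at -0.28, the value of 1 probe set. Counts over all probe sets moved by over 1.5 times under 6 settings. They were 1481 lower and 694 higher without further scaling, 468 and 639 with the floor at the median, 2423 and 2362 without a filter, 378 and 542 with both values above it, 218 and 308 with the filter at the 75th percentile, and 2525 and 4112 at 1.5-fold. The share higher among probe sets 2-fold apart therefore depended on the scaling. The dim 1427869_at, 1427758_x_at and 1427859_at stood at -0.25, -0.87 and -0.06 with the floor at the median. No paired analysis was possible because each group is 1 array. Signal near background limits the dim members.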
